A study of Homo sapiens with 6 samples.

Results

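The HOX genes of the clusters A, B, C and D and the related CDX genes were followed in cultures differentiated towards pancreatic progenitors with or without K-3. They were taken as every protein-coding gene of the deposited table named HOXA, HOXB, HOXC or HOXD with a position number, plus CDX1, CDX2 and CDX4. This gave 42 genes of 58735 in the table and of 19951 protein-coding ones, and 41 of the 42 are described. Counts and sums below are over these 41. HOX genes encode transcription factors with a DNA-binding homeodomain, and they lie in the order in which they are used along the body axis: low positions in the hindbrain and anterior trunk, high positions in the posterior trunk and tail. Genes with the same position number in different clusters are paralogues, descended from a common ancestor. Retinoic acid switches on low-numbered HOX genes directly, and CDX proteins, which are themselves relatives of the HOX proteins, act upstream of more posterior HOX genes. In the gut endoderm CDX2 marks the region behind the stomach and is needed for intestinal identity, while PDX1, a close relative, marks the neighbouring region that forms pancreas and duodenum.

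Messenger RNA was sequenced from wild-type cells of the human induced pluripotent stem cell line Ff-I01s01, a reprogrammed line. One set of cultures received K-3 at 2 µM in differentiation step S3, between days 6 and 8 (K-3, n = 3 libraries), and the other went through the same days of S3 without it (Control, n = 3). K-3 is a code name, and the labels say nothing more about it. The study asked how K-3 affects the differentiation, and the labels leave unsaid whether replicates were differentiated separately, so p-values measure only the spread between libraries, which may be technical.

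Values are the authors' FPKM, fragment counts divided by gene length and library size, so levels of different genes can be compared. Depth was 41876557 to 50245547 fragments in K-3 libraries and 35371195 to 38809532 in Control libraries, with no overlap, and the part of depth in the results was not tested. Of the pancreatic progenitor genes checked, PDX1 had 21.1 to 23.6 FPKM in K-3 libraries and 11.6 to 17.8 in Control libraries. NKX6-1, which marks later pancreatic progenitors, had 0 fragments in all 6 libraries, and PTF1A had at most 0.0854 FPKM, in a Control library. Of the 9 pancreatic progenitor markers listed, 7 averaged at least 1 FPKM. Of the 16 intestinal genes checked, the goblet cell mucin MUC2 and the enterocyte genes SI and FABP2 were at 0 in all 6. The intestinal list, CDX2 and ISX among its genes, summed to 68.8 to 77.8 FPKM in K-3 libraries. In Control libraries it summed to 55.7 to 65.6 FPKM. These are bulk libraries, so more cells expressing a gene and more RNA per cell cannot be told apart.

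The homeobox, the part of each gene that encodes the homeodomain, is shown for HOXB2 and CDX2, which had the larger log2 fold changes among the genes described that were tested, and for HOXB1, the neighbour of HOXB2. Related genes can share reads where their sequences are the same. Capitals mark 18 bases that encode a conserved stretch of the recognition helix, which contacts DNA. The sequences are from GENCODE release 29 on GRCh38, each 180 bases long, and all are read from the minus strand.
HOXB1: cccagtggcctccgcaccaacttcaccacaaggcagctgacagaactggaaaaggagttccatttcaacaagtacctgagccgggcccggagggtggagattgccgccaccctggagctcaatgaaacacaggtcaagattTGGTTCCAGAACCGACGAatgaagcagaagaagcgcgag
HOXB2: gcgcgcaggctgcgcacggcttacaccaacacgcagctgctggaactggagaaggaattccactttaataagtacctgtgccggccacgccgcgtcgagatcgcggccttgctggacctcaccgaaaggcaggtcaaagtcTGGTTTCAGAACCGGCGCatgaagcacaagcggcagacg
CDX2: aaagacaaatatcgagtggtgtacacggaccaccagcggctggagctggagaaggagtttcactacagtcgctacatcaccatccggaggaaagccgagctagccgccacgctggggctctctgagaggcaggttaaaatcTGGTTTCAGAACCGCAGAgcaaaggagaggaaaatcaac
The HOXB1 homeobox lies at chr17:48529667-48529846 and that of HOXB2 at chr17:48543533-48543712. The CDX2 homeobox is split by an intron within chr13:27963322-27965001. The homeoboxes of HOXA2 and HOXB2, which are paralogues, were 76.7% identical, and those of CDX2 and its paralogue CDX1 were 81.7% identical. Over the whole transcripts, the longest exact run that HOXB2 shared with any other gene of the set was 24 bases, and it was 29 bases for CDX2. For HOXB2 and CDX2, identity with the other genes of the set thus came in short runs, also with their paralogues.

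Most of these genes had few or no counted fragments in both groups. No fragment was counted in any of the 6 libraries for 21 of the 41 genes (51.2%), against 2309 of 19951 protein-coding genes (11.6%). A count of 0 allows up to 0.0159 to 0.0649 FPKM for these genes, taking 3 fragments per library as the limit, which covers counting error only. The genes at 0 were HOXA6, HOXA9, HOXA10 and HOXA11, HOXB5, HOXB6, HOXB8 and HOXB9, HOXC6 and HOXC8 to HOXC12, HOXD1, HOXD3, HOXD4 and HOXD10 to HOXD12, and CDX4. Some share many exon bases with other annotated genes, such as HOXD4 (80.5%), HOXD3 (74.1%) and HOXD1 (58.1%). Others, such as HOXB8, HOXB9 and HOXC8, share none. The sources used here do not say how reads in shared bases were counted, so 0 there need not mean no RNA. Of the 41, CDX2, HOXB2 and HOXA3 averaged at least 1 FPKM over the 6 libraries. That is 7.32%, against 56.05% of all protein-coding genes.

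Levels differed by position in the cluster, with most of the signal in few genes. The 7 HOX genes described at positions 1 to 3 summed to 15.7 ± 3.16 FPKM in K-3 libraries and 8.19 ± 2.87 FPKM in Control libraries (SD, n = 3 each). Positions 4 to 8 summed to 1.39 ± 0.173 FPKM in K-3 and 0.916 ± 0.272 FPKM in Control, and positions 9 to 13 to 0.318 ± 0.147 FPKM in K-3 and 0.138 ± 0.0625 FPKM in Control. Each sum was mostly 1 gene in K-3, which was HOXB2 at positions 1 to 3, HOXC4 at 4 to 8 and HOXB13 at 9 to 13. The order was not even: the genes described at position 1 summed to 0.0874 FPKM in K-3 and 0.0466 FPKM in Control, under position 4 with 1.09 FPKM in K-3 and 0.722 FPKM in Control. No fragment was counted for any gene of positions 6, 10, 11 or 12. The clusters also differed: HOXB summed to 13.4 ± 2.92 FPKM in K-3 and 6.61 ± 2.16 in Control. HOXC summed to 1.07 ± 0.149 FPKM in K-3 and 0.717 ± 0.203 in Control, and HOXD had 9 fragments over the K-3 libraries and 8 over the Control libraries. The map of mean levels by cluster and position shows which genes these are in both groups.

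**Figure D1:**
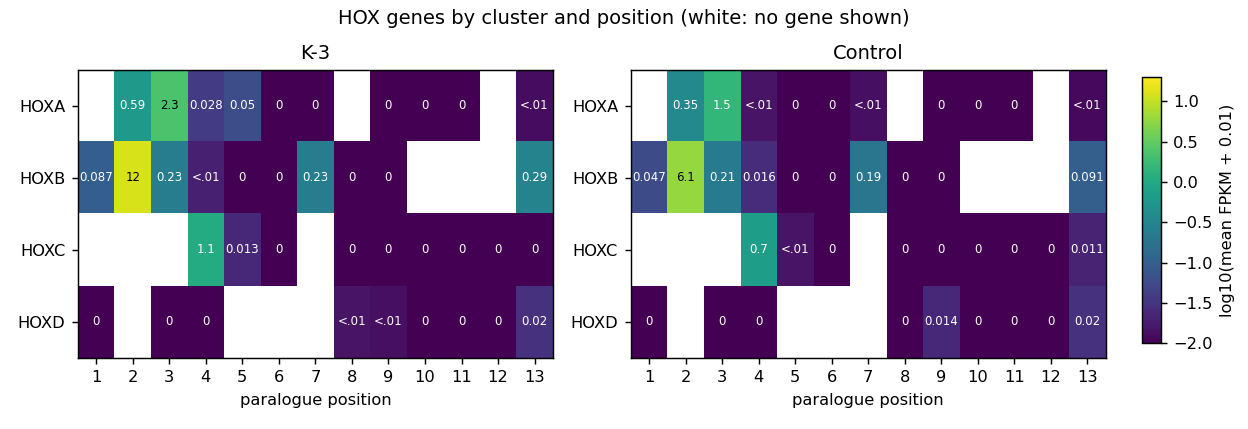
Mean FPKM of each HOX gene, by cluster (rows) and paralogue position (columns), in K-3 (left) and Control (right) libraries, n = 3 each. Colour is log10(mean FPKM + 0.01), numbers are mean FPKM, and white marks positions with no gene shown; the highest cells are HOXB2 and HOXA3 in both groups, and the HOXD row is dark throughout.

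HOXA2 patterns the hindbrain and the neural crest of the second pharyngeal arch, and HOXA3 the pharyngeal organs. HOXA3 had 2.68, 2.40 and 1.83 FPKM in K-3 libraries, against 1.198, 2.14 and 1.23 FPKM in Control libraries. Here the groups overlapped, since Control library 2 was above K-3 library 3. HOXA3 shares 17.9% of its exon bases with other annotated genes, and the sources used here do not say whether the libraries kept strand, so reads from such overlaps cannot be assigned. HOXA2 had 0.785, 0.498 and 0.483 FPKM in K-3 libraries, against 0.330, 0.639 and 0.0792 FPKM in Control libraries, and also overlapped. Beyond position 3 few fragments were counted in the HOXA cluster. HOXA4 had 7 fragments over the K-3 libraries and 1 over the Controls. HOXA7 had 0 and HOXA13 had 2 in K-3, against 1 each in Control. HOXA4 shares 47.3% and HOXA7 62.5% of its exon bases with other annotated genes, so reads there may have gone uncounted. HOXA5, which is required for lung and upper thoracic development in mice, had 6, 4 and 2 fragments in K-3 libraries and 0 in each Control library. It was under the minimum level of both tests given below.

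HOXB2, a position 2 gene of the hindbrain, was the leading gene of its cluster. It had 15.3, 11.5 and 10.7 FPKM in K-3 libraries, against 5.29, 8.34 and 4.52 FPKM in Control libraries. The groups did not overlap, and Control library 2 was the highest Control. Means were 12.5 ± 2.44 FPKM in K-3 and 6.05 ± 2.02 FPKM in Control, a ratio of 2.07, from 4031 fragments in K-3 and 1609 in Control. HOXB2 lies at chr17:48540894-48544989 on the minus strand and shares 3.7% of its exon bases with the antisense RNA HOXB-AS1.

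HOXB1, directly beside HOXB2, stayed low: it had 31 fragments over the K-3 libraries and 13 over the Controls. HOXB3 averaged 0.235 FPKM in K-3 and 0.215 FPKM in Control, and HOXB7 0.234 FPKM in K-3 and 0.186 FPKM in Control, with overlapping groups for both. HOXB4 had 5 fragments in K-3 and 7 in Control. HOXB13, best known from the prostate and hindgut and separated from the rest of its cluster, was the most posterior gene with a measurable level. It had 0.443, 0.253 and 0.178 FPKM in K-3 libraries, against 0.0529, 0.149 and 0.0722 FPKM in Control libraries, from 142 fragments in K-3 and 36 in Control. All 3 K-3 libraries were above all 3 Controls for HOXB13, at a level far under that of HOXB2.

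In HOXC the signal was nearly all from HOXC4, the lowest-numbered gene of that cluster. HOXC4 had 1.01, 0.941 and 1.21 FPKM in K-3 libraries, against 0.625, 0.935 and 0.541 FPKM in Control libraries. K-3 library 2 and Control library 2 were almost level, and the other Controls were lower. HOXC4 shares 17.8% of its exon bases with HOXC5 and HOXC6, of which HOXC5 had 3 fragments in K-3 and 1 in Control and HOXC6 none. HOXC13 had 0 fragments in K-3 and 3 in Control. In HOXD only HOXD8, HOXD9 and HOXD13 had counted fragments. These were 2, 1 and 6 over the K-3 libraries, against 0, 3 and 5 over the Controls.

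CDX2 had 14.4, 13.01 and 12.9 FPKM in K-3 libraries, against 6.81, 10.9 and 5.31 FPKM in Control libraries. The K-3 libraries lay close together and above every Control, and Control library 2 was between its group and K-3. Means were 13.4 ± 0.839 FPKM in K-3 and 7.68 ± 2.90 FPKM in Control, a ratio of 1.75, from 7581 fragments in K-3 and 3606 in Control. CDX2 lies at chr13:27962137-27971139 on the minus strand and shares no exon base with another gene. CDX1, its paralogue in the later intestine, had 9 fragments in K-3 and 4 in Control, and CDX4, which acts in the embryonic tail, had none. The plot of these 3 genes by library shows the shared place of Control library 2.

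**Figure D2:**
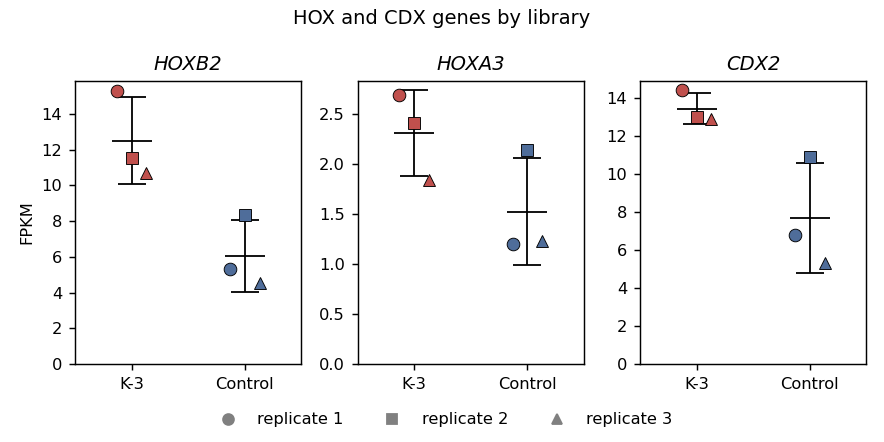
FPKM of HOXB2, HOXA3 and CDX2 in each library (y axis, linear from 0), K-3 left and Control right; symbols give the replicate number, and bars the mean ± SD of 3 libraries. For HOXB2 and CDX2 every K-3 library is above every Control library, and Control replicate 2 is the highest Control in all 3 panels.

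The promoter of CDX2 was searched for letters linked to these pathways, since CDX2 and HOXB2 shifted in the same libraries. Shown are 300 bases, most of them upstream, around a CDX2 start in RefSeq (GRCh38.p14, chr13:27969266-27969565, minus strand), with capitals for TTTAT on either strand, the core letters bound by CDX proteins.
CDX2: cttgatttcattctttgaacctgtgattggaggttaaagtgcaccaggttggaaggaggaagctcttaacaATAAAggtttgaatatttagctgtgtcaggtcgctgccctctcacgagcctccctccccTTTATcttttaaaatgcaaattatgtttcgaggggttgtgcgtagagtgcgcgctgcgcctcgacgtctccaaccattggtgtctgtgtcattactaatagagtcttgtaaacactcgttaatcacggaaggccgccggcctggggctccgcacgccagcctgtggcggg
TTTAT occurred 2 times in it, and 34.9% of all 35116 RefSeq promoters of this length hold at least 1. AGGTCA, the usual half-site of retinoic acid receptors, was on neither strand of the promoters listed for 22 of the 41 genes, HOXB2 not among them, and was in 13.8% of all promoters. The variant AGTTCA was in 10.4% of all promoters and not in that of CDX2. A match or its lack describes these letters in this window only.

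K-3 was compared with Control over the 12989 genes that averaged 1 FPKM or more, using limma on log2(FPKM + 1) with Benjamini-Hochberg adjustment at 0.05, two-sided. In that test 0 of the 3 HOX and CDX genes tested were called, against 1.14% of all genes called higher and 0.901% called lower. All 3 had positive log2 fold changes and an unadjusted p under 0.05, which 11.7% of all genes tested had in the higher direction. HOXB2 had a log2 fold change of 0.96 (SE 0.20, adjusted p 0.0609 by limma), and CDX2 one of 0.78 (SE 0.21, adjusted p 0.0929 by limma). For HOXA3 it was 0.40 (SE 0.16, adjusted p 0.202 by limma). Their 95% intervals ran from 0.48 to 1.43 for HOXB2, 0.30 to 1.27 for CDX2 and 0.03 to 0.78 for HOXA3. Of all genes tested 12 had a larger log2 fold change than HOXB2 and 23 a larger one than CDX2. The median log2 fold change was 0.78 over the 3 genes and 0.01 over all genes. HOXB2 and CDX2 had groups that did not overlap, as did 15.4% of all genes tested in that direction.

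A test on whole fragments recovered from the FPKM (limma voom, genes averaging at least 10 fragments) took in 8 of the 41 genes. It called 2 of them higher with K-3, against 2.23% of all 18535 genes called higher and 2.31% called lower. HOXB2 had a log2 fold change of 1.08 (adjusted p 0.00979 by limma voom) and CDX2 one of 0.87 (adjusted p 0.0177 by limma voom). The other 6 were not called: log2 fold changes were 0.64 for HOXA3, 0.60 for HOXC4, 1.13 for HOXA2, 0.15 for HOXB3, 0.21 for HOXB7 and 1.69 for HOXB13. HOXB13 had an interval of 0.61 to 2.77 and an adjusted p of 0.0747 by limma voom, and HOXC4 an adjusted p of 0.144. In limma on log2(FPKM + 1), the calls also depended on which genes were tested. Among the 11182 protein-coding genes alone, HOXB2 (adjusted p 0.019) and CDX2 (adjusted p 0.0373) passed limma's test, against 3.62% called higher and 2.58% lower. Among the 7561 genes averaging 5 FPKM or more, HOXB2 passed (adjusted p 0.0301 by limma), against 3.13% called higher and 2.25% lower. In limma voom all 8 estimates were positive, though for HOXA2, HOXB3 and HOXB7 the interval took in 0, as the plot of fold changes shows.

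**Figure D3:**
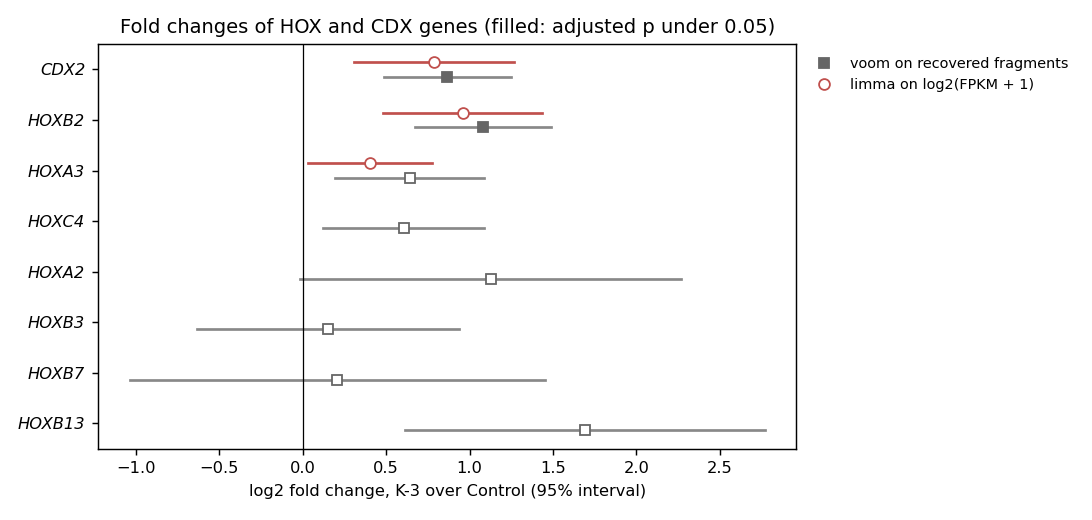
Log2 fold changes, K-3 over Control, with 95% intervals (x axis) for 8 HOX and CDX genes with enough fragments, ordered by mean FPKM; circles are limma on log2(FPKM + 1), squares limma voom on fragments, and filled symbols have an adjusted p under 0.05. The filled symbols are the voom values of CDX2 and HOXB2, and every estimate is right of 0.

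Control library 2 moved with these results. It was the highest Control for all 3 tested genes, as for 28.6% of all genes tested. On the log2 scale it lay 73.4% of the way from the mean of the other Controls to the K-3 mean for CDX2, 56.3% for HOXB2 and 88.5% for HOXA3. Without that library limma called 2 of the 3 genes, against 2.10% of 12924 genes called higher and 1.76% called lower. CDX2 then had a log2 fold change of 1.04 (adjusted p 0.0123 by limma) and HOXB2 one of 1.18 (adjusted p 0.0153), while HOXA3 had 0.57 (adjusted p 0.054). Leaving out any other library gave 0 calls among the 3, and no value turned negative. K-3 library 1, the deepest, was the highest K-3 library for all 3, and without it HOXB2 had a log2 fold change of 0.82 (adjusted p 0.155 by limma). The labels name no batch, and what sets Control library 2 apart was not tested.

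**Figure D4:**
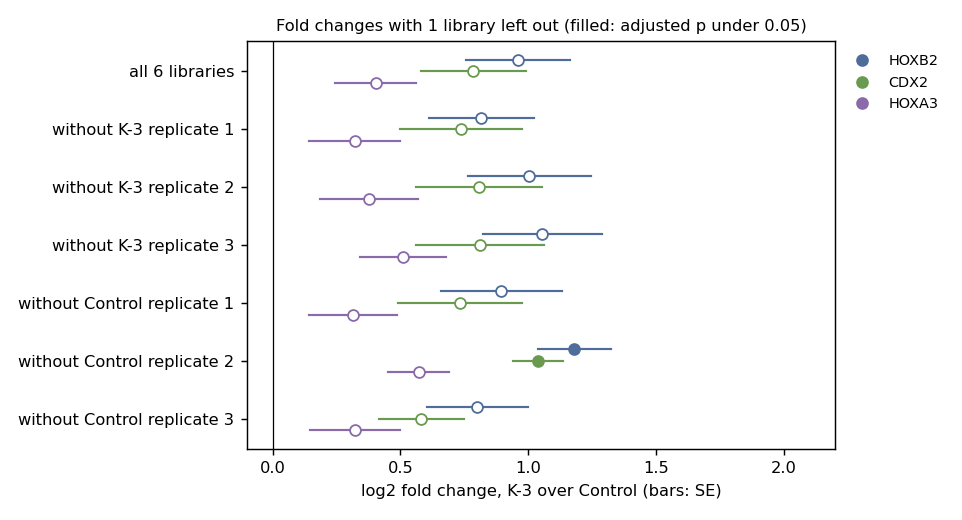
Log2 fold changes, K-3 over Control (x axis, bars are the SE), of HOXB2, CDX2 and HOXA3 in limma with all 6 libraries and with each library left out in turn (rows). Filled symbols, with an adjusted p under 0.05, appear only without Control replicate 2, where HOXB2 reaches 1.18, and all values are above 0.

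Genes at the edges of the clusters gave a mixed picture. Of 13 tested genes listed as neighbours of the HOX clusters and of CDX2, 0 were called by limma (1.14% of all genes called higher), and their median log2 fold change was 0.05. By limma voom 2 of 16 rose and 0 fell, PDX1 and SKAP2, against 2.23% and 2.31% of all genes. Limma called both among protein-coding genes only (adjusted p 0.0208 and 0.0239), against 3.62% of those called higher. At a minimum of 5 FPKM it also called both (adjusted p 0.0318 and 0.0371), against 3.13%. SKAP2, a signalling adaptor of blood cells, is the nearest coding gene beyond the low-numbered end of HOXA. It had 12.7, 10.3 and 9.71 FPKM in K-3 libraries, against 4.63, 8.05 and 4.39 FPKM in Control libraries. As for HOXB2, the groups did not overlap, with Control library 2 highest of its group, and the log2 fold change was 0.87 (SE 0.20, adjusted p 0.0704 by limma, 0.0109 by limma voom). EVX1, at the other end of HOXA, had 5 fragments in K-3 and 1 in Control. The HOXB edge genes were low: SKAP1 averaged 0.432 FPKM in K-3 and 0.334 FPKM in Control, and TTLL6 0.0546 FPKM in K-3 and 0.0457 FPKM in Control. MTX2, a mitochondrial import gene beside HOXD1, was expressed beside a cluster with few counted fragments, at 19.0 ± 1.97 FPKM in K-3 and 17.9 ± 0.740 FPKM in Control. Of the other neighbours, CALCOCO2 had a log2 fold change of 0.10 and CBX5 of 0.08, neither called.

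PDX1 lies on chromosome 13, 35906 bases from CDX2. It had 23.6, 21.97 and 21.1 FPKM in K-3 libraries, against 13.7, 17.8 and 11.6 FPKM in Control libraries. The groups did not overlap, and the log2 fold change was 0.62 (SE 0.13, adjusted p 0.0637 by limma, 0.0102 by limma voom). The other ParaHox genes GSX1 and GSX2 had no fragment. So of the ParaHox genes, only CDX2 and PDX1 were measured above 1 FPKM.

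Most non-coding RNAs of the clusters had no counted fragment, with 19 of 24 matched names at 0 in all 6 libraries. HOTAIR and HOTTIP were among them. HOTAIRM1, a non-coding RNA of the HOXA cluster known for a role in its activation, was well above 1 FPKM. It shares 44.9% of its exon bases with other annotated entries, and those listed are RF-numbered entries on the same strand. It had 24.5, 14.4 and 13.02 FPKM in K-3 libraries, against 4.80, 16.2 and 5.32 FPKM in Control libraries. Control library 2 was above K-3 libraries 2 and 3 here, so the groups overlapped, and the log2 fold change was 1.04 (SE 0.42, adjusted p 0.211 by limma). Without Control library 2 it was 1.55 (adjusted p 0.0258 by limma). HOXB-AS1, which overlaps HOXB2 and HOXB3, had a log2 fold change of -0.002 (adjusted p 0.993 by limma), with 1.48, 1.17 and 0.974 FPKM in K-3 libraries and 1.28, 1.45 and 0.910 FPKM in Control libraries. The antisense RNA beside HOXB2 thus showed no difference beyond its spread while for HOXB2 itself every K-3 library was above every Control library.

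PBX, MEIS and PKNOX proteins bind DNA together with HOX proteins. Of 8 such cofactor genes tested, 1 rose with K-3, 0 fell and 7 were not called by limma, against 1.14% of all genes called higher and 0.901% lower, with a median log2 fold change of 0.20. By limma voom 3 of 9 rose and 0 fell, against 2.23% and 2.31% of all genes. The one that rose was PBX3, with 16.5, 18.3 and 16.2 FPKM in K-3 libraries, against 11.9, 13.7 and 10.8 FPKM in Control libraries. Its log2 fold change was 0.46 (SE 0.08, adjusted p 0.0467 by limma, 0.00772 by limma voom), and leaving out any library but Control library 2 ended the call, with adjusted p from 0.0556 to 0.161. MEIS2, also a retinoic acid target, had 4.88, 4.07 and 4.13 FPKM in K-3 libraries, against 2.97, 3.42 and 2.84 FPKM in Control libraries (log2 fold change 0.39, adjusted p 0.0555 by limma, 0.00944 by limma voom). It was also called among protein-coding genes only (adjusted p 0.0191 by limma), a setting not looked up for PKNOX1 and PKNOX2. PKNOX2 had a log2 fold change of 0.20 (adjusted p 0.0592 by limma, 0.0381 by limma voom) and PKNOX1 one of -0.16 (adjusted p 0.0983 by limma, 0.0753 by limma voom). Estimates of the partners thus lay on both sides of 0.

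Retinoic acid response genes were examined because they include the direct inducers and readouts of anterior HOX genes. Of 12 tested, 0 were called by limma, 8 had an unadjusted p under 0.05 in the higher direction, against 11.7% of all genes, and the median log2 fold change was 0.30. By limma voom 4 of 15 rose and 0 fell, against 2.23% and 2.31% of all genes: CYP26A1, RARB, NR2F1 and MEIS2. CYP26A1, the enzyme that breaks down retinoic acid and is itself induced by it, had 110, 61.8 and 66.4 FPKM in K-3 libraries, against 12.3, 62.4 and 8.29 FPKM in Control libraries. Control library 2 matched the lower K-3 libraries while the other Controls were far below, and the log2 fold change was 1.97 (SE 0.66, adjusted p 0.148 by limma, 0.0452 by limma voom). Without Control library 2 it was 2.81 (adjusted p 0.0123 by limma). The retinoic acid receptor gene RARB had a log2 fold change of 0.43 (adjusted p 0.106 by limma, 0.0342 by limma voom, and 0.0498 by limma among protein-coding genes only). The binding protein gene CRABP1 had one of 0.46 (adjusted p 0.0912 by limma, 0.0762 by limma voom) and the nuclear receptor gene NR2F1 one of 0.32 (adjusted p 0.0973 by limma, 0.0426 by limma voom). Control library 2 stood 89.5% of the way to K-3 for CYP26A1, 63.2% for RARB and 77.3% for DHRS3, a retinoid reductase. The plot of related genes by library sets these beside HOXB2 and CDX2.

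**Figure D5:**
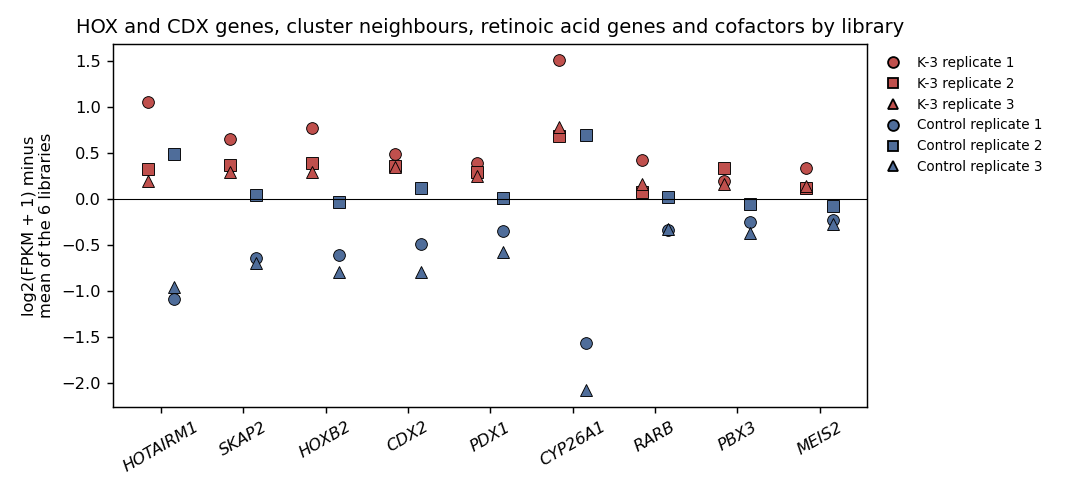
Log2(FPKM + 1) of each library minus the mean of the 6 libraries (y axis) for HOTAIRM1 and SKAP2 at the HOXA cluster, HOXB2, CDX2 and its neighbour PDX1, the retinoic acid genes CYP26A1 and RARB and the cofactors PBX3 and MEIS2 (x axis); red is K-3, blue is Control, and symbols give the replicate. Control replicate 2 (blue square) is the highest Control for each of these genes, and for HOTAIRM1 and CYP26A1 it lies within the K-3 range.

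Genes of the signals that act on posterior HOX and CDX genes were less uniform. Of 8 tested, 0 were called by limma, against 1.14% of all genes called higher and 0.901% lower. Their median log2 fold change was 0.05. By limma voom 2 of 11 rose and 0 fell, against 2.23% and 2.31% of all genes. These were WNT5A and CYP26A1, of which CYP26A1 was already counted among the retinoic acid response genes. WNT5A, a ligand of the growing tail and gut, had 1.93, 1.64 and 1.56 FPKM in K-3 libraries, against 0.853, 1.22 and 0.752 FPKM in Control libraries (log2 fold change 0.49, adjusted p 0.0688 by limma, 0.0103 by limma voom). Limma called WNT5A among protein-coding genes only (adjusted p 0.0208). FGF8 had a log2 fold change of -0.23 (adjusted p 0.357 by limma) and GDF11, which sets the trunk-to-tail transition, one of 0.07 (adjusted p 0.358). Of 9 hindbrain regulators matched, ZIC2 was tested and not called, with a log2 fold change of -0.31 (adjusted p 0.146 by limma).

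Polycomb proteins keep HOX clusters silent, and trithorax proteins keep them active. Of 24 tested genes of these complexes 0 were called by limma, against 1.14% of all genes called higher and 0.901% lower, and their median log2 fold change was 0.05. By limma voom 1 rose and 0 fell, against 2.23% and 2.31% of all genes. JARID2, a partner of the Polycomb methyltransferase, had 20.5, 19.1 and 18.4 FPKM in K-3 libraries, against 15.5, 16.8 and 15.1 FPKM in Control libraries (log2 fold change 0.27, adjusted p 0.0586 by limma). It was the gene called by limma voom (adjusted p 0.0176), and limma called it among protein-coding genes only (adjusted p 0.0242) and at a minimum of 5 FPKM (adjusted p 0.033). CBX8, a Polycomb reader, had a log2 fold change of 0.19 (adjusted p 0.113 by limma). The trithorax methyltransferase genes KMT2A and KMT2D had -0.14 each (adjusted p 0.208 and 0.197).

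Among 16 intestinal genes, 4 were tested, with CDX2 one of them. Limma called 0 of the 4, against 1.14% of all genes called higher and 0.901% lower. By limma voom 2 of 6 rose and 0 fell, against 2.23% and 2.31% of all genes. These were ISX and CDX2, which is itself one of the genes described. ISX, an intestinal homeobox gene that lies downstream of CDX2 in mice, had 27.3, 17.8 and 19.3 FPKM in K-3 libraries, against 11.6, 14.9 and 10.7 FPKM in Control libraries. Its groups did not overlap, and its log2 fold change was 0.73 (SE 0.17, adjusted p 0.0723 by limma, 0.0152 by limma voom). Limma called ISX among protein-coding genes only (adjusted p 0.0245) and at a minimum of 5 FPKM (adjusted p 0.0385). HNF4G and the brush border gene VIL1 had estimates on the other side of 0, at -0.09 (adjusted p 0.202 by limma) and -0.11 (adjusted p 0.342). VIL1 shares 44.0% of its exon bases with USP37 on the opposite strand.

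Markers of other cell types were summed in each library, since HOX genes are used in mesoderm and neural tissue too. Mesoderm and mesenchyme markers summed to 95.7 to 101 FPKM in K-3 libraries and 53.1 to 88.0 FPKM in Control libraries, and 0 of the 3 tested of 15 were called. Most of that sum was VIM, an intermediate filament gene, with 73.1, 71.7 and 70.1 FPKM in K-3 libraries, against 38.6, 61.6 and 28.97 FPKM in Control libraries (log2 fold change 0.79, adjusted p 0.118 by limma, 0.0341 by limma voom). VIM shares 24.4% of its exon bases with antisense genes, and Control library 2 was its highest Control as well. The other members tested were the receptor gene PDGFRA, with 20.4 ± 0.955 FPKM in K-3 and 19.1 ± 0.676 FPKM in Control, and the collagen gene COL1A1, with 5.22 ± 0.413 FPKM in K-3 and 4.65 ± 0.786 FPKM in Control (SD, n = 3 each). Without VIM the list summed to 25.6 to 28.3 FPKM in K-3 and 24.1 to 26.4 FPKM in Control. FOXF1 had no fragment, and COL3A1, DCN, LUM and PRRX1 averaged at most 0.0207 FPKM. The part of these cells in the HOX and CDX values was not tested. Neural and neural crest markers summed to 8.68 to 9.64 FPKM in K-3 and 8.62 to 8.90 FPKM in Control, and 0 were called. Endoderm markers summed to 1085 to 1144 FPKM in K-3 and 1012 to 1116 FPKM in Control. Pancreatic progenitor markers summed to 129 to 130 FPKM in K-3 and 124 to 125 FPKM in Control, and pluripotency markers to 372 to 380 FPKM in K-3 and 373 to 407 FPKM in Control, with 0 called in each list by limma. By limma voom 2 of 10 endoderm markers rose (GATA4 and FOXA1), and of 7 pancreatic progenitor markers PDX1 and SOX9 rose and PROX1 fell, against 2.23% of all genes called higher and 2.31% lower.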

How the data were processed

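The authors deposited FPKM per gene and library with gene lengths. The submitters' processing notes name HISAT2 2.0.5, featureCounts 1.5.0-p3, DESeq2 1.20.0 and the build GRCh38; settings and strand are not given in the sources used here. FPKM times length gave whole fragments for 100% of values (tolerance 1e-06), so depth could be recovered; 3 fragments in a 1 kb gene are 0.0591 to 0.0834 FPKM, counting error only. All sample columns were used. Of 58735 genes, 58690 have the GENCODE release 29 position.

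Genes averaging 1 FPKM or more were tested with limma 3.58.1 (R 4.3.3) on log2(FPKM + 1), a scale that understates changes of low genes; adjusted p-values are Benjamini-Hochberg over all genes tested. Limma voom on fragments was an alternative. For genes of the lists, limma results among protein-coding genes only and at 5 FPKM were looked up for some alone. Outside the HOX and CDX set these were PBX3, MEIS2, SKAP2, PDX1, HOTAIRM1, CYP26A1, RARB, DHRS3, ISX, WNT5A, JARID2 and VIM, where tested. Each of them had a positive estimate, and other list genes, higher or lower, may also pass in those settings. The genes and the lists were chosen with earlier results of these data known. A few genes, 1 of the 42 among them, are not reported here; tests and adjustments still ran over the whole table. Genes were named by level (at least 1 FPKM) or, in each list, when called or among the 4 smallest p. Values of HOXB13, HOXC4, HOXA2, HOXA5, SKAP1, TTLL6, EVX1, MTX2, DHRS3, COL1A1 and some genes called by limma voom were singled out after they were seen. Permutation of 3 against 3 libraries cannot pass 0.05 and was not used.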

Additional observations from a re-analysis of the deposited data

How the results depend on the processing

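In every alternative run, CDX2, HOXB2 and HOXA3 kept positive log2 fold changes wherever they were tested. Of these 3 genes, 1 was called with a minimum mean of 5 FPKM (HOXB2; 3.13% of 7561 genes called higher), 2 among protein-coding genes only (HOXB2 and CDX2; 3.62% of 11182), and 2 (of 8 tested) by limma voom. Genes called higher and lower over the whole table were 148 and 117. They were 21 and 22 with a minimum of 0.1 FPKM, 0 and 0 with no minimum, 237 higher with a minimum of 5 FPKM, 405 and 289 among protein-coding genes only, and 413 and 428 by limma voom. With a lower minimum more HOX and CDX genes entered, and their median log2 fold change was 0.26 at 0.1 FPKM and 0.029 with no minimum, against 0.78. Leaving out 1 library at a time gave 0 to 271 genes higher, 0 to 446 lower, 0 to 2 of the 3 genes called and a median of 0.58 to 1.04. Pseudocounts of 0.1 and 0.5 and both rescalings changed no call of the 3.

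Libraries of the same number did not deviate together (correlations -0.364, -0.034 and -0.113). This shows no pairing by number but cannot exclude it, with 3 libraries in each group. With the replicate block in the fit, 0 genes were higher and 0 lower by limma, and HOXB2 had an adjusted p of 0.14. Its SE was 0.18 with the block and 0.20 without. The call of PBX3 was lost in 9 of its alternatives, among them the block (adjusted p 0.115 by limma). Genes under 1 FPKM rest on few fragments, and no difference was detectable for most.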
